A study of Mus musculus with 12 samples.

Results

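Bone morphogenetic protein (BMP) signalling was followed through 10 genes, namely the ligands Bmp4 and Bmp7, the receptors Bmpr1a, Bmpr1b and Bmpr2, the signal-carrying Smads Smad1 and Smad5, and the inhibitors Smad6, Smad7 and Bambi. They were taken by symbol out of 37620 genes counted, and all 10 were found. In GRCm38 Bmp4 and Bmpr1a lie on chromosome 14, Bmp7 on 2, Bmpr1b on 3, Bmpr2 on 1, Smad1 on 8, Smad5 on 13, Smad6 on 9, and Smad7 and Bambi on 18. RNA was sequenced from cultured neural stem cells of E14.5 C57BL/6J mouse embryos, which divided in medium with FGF-2 and EGF. The proteins removed were E12 or E47, splice forms of Tcf3 that bind DNA as E proteins, a class of helix-loop-helix transcription factors. The groups were E12KO (E12-/-), E12wt (E12+/+ cells from litter mates of the E12-/- embryos), E47KO (E47-/-) and E47wt (E47+/+ cells from litter mates of the E47-/- embryos), with 3 libraries each. The labels give no cell type restriction or Cre driver for either knockout. Nor do they tie a library to an embryo or litter, so the p-values below measure the spread between these libraries, which may be technical.

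BMPs are secreted ligands of the transforming growth factor beta family. A ligand brings together type I receptors (Bmpr1a, Bmpr1b and Acvr1) and type II receptors (Bmpr2, Acvr2a and Acvr2b), which are serine/threonine kinases, and the type I receptor then phosphorylates Smad1, Smad5 or Smad9. These Smads join Smad4, enter the nucleus and switch on targets such as the Id genes, whose proteins bind E proteins and keep them off DNA. Smad6 and Smad7 block the pathway inside the cell, and Bambi is a receptor-like membrane protein without a kinase. In neural stem cells BMPs are known for favouring astrocyte formation and for holding cells out of the cell cycle.

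The 12 libraries held 34515297 to 56835783 reads on genes, so that 3 reads corresponded to 0.0528 to 0.0869 CPM, the unit of reads scaled to a common library size. All 8 neural stem cell markers looked at averaged at least 1 CPM in every group, and their summed level per library was 10200 to 10700 CPM in E12KO, 9500 to 10700 CPM in E12wt, 10300 to 10500 CPM in E47KO and 9930 to 11300 CPM in E47wt. E47KO replicate 2 stood apart from the rest: its score on the first principal component was 64, and those of the other 11 libraries were between -17.3 and 10.3; this component held 39.6% of the variance. For the 8 BMP genes tested, and for some other pathway genes, values of the E47 line are also given without it. Tcf3 itself was between 72.9 and 118 CPM in all libraries; a count over the whole gene takes in both splice forms and does not check the genotype labels. Xist, which is transcribed in female cells, was at 885 CPM or more in all E12KO and E12wt libraries and in E47wt replicates 1 and 3, and under 1 CPM in all E47KO libraries and E47wt replicate 2. In bulk cultures, fewer cells of a type and less RNA per cell cannot be told apart.

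Set per kilobase of exon, so that genes of unequal length can be compared, the BMP genes ranged from among the more abundant transcripts of these cells to almost none. Over the 12 libraries Smad5 had the highest mean level of the 10, at 47.9 CPM per kilobase, above 92% of genes with a mean of at least 1 CPM. Bmpr1a followed with 37.8 and Bmp7 with 29.2 CPM per kilobase. Smad1 with 11.4 and Bmpr1b with 11.1 CPM per kilobase lay near the middle, and Bmpr2 had 4.03 CPM per kilobase. The inhibitors were lower, at 1.61 CPM per kilobase for Bambi and 0.729 CPM per kilobase for Smad7. Bmp4 and Smad6 were close to the detection limit at 0.018 and 0.0125 CPM per kilobase.

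**Figure D1:**
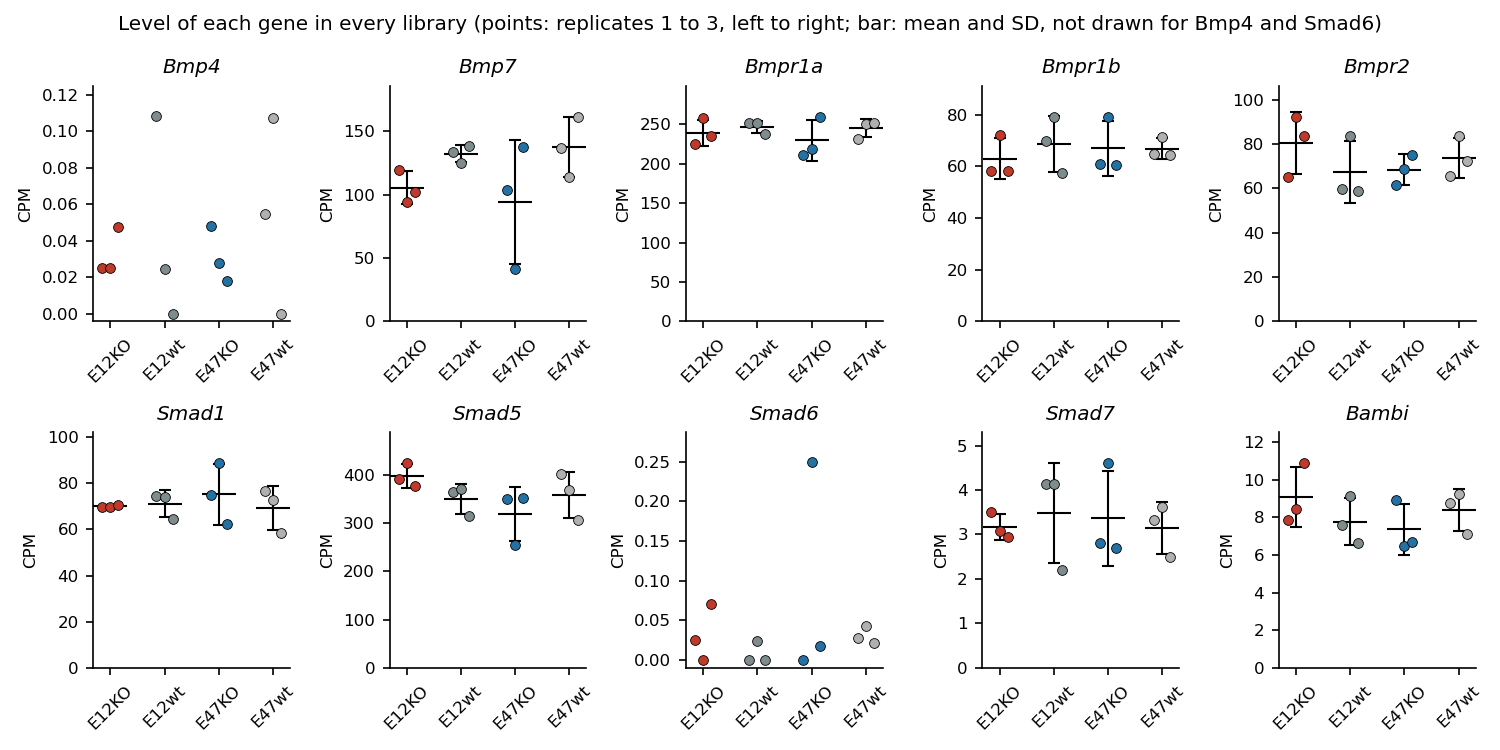
Level of each of the 10 BMP genes in every library, in CPM on a linear axis that differs between panels. Points are libraries and bars are group means with SD. The E47KO library with 41.6 CPM of Bmp7 is the lowest of the 12, and the E12KO points of Bmp7 lie below all E12wt points.

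Each class of the pathway was carried mainly by 1 gene. Among 15 BMP-type ligands, Bmp7 made up 98.1% ± 0.144 of the summed level per kilobase in E12KO, 98.7% ± 0.3 in E12wt, 97% ± 3.11 in E47KO and 98.5% ± 0.736 in E47wt (SD, n = 3 each). Of the type I receptors, Bmpr1a made up 68.4% in E12KO, 68% in E12wt, 67.5% in E47KO and 68.3% in E47wt. Bmpr1b accounted for 19.1% of the same sum in E12KO, 20.1% in E12wt, 21.1% in E47KO and 19.8% in E47wt. Bmpr2 was the lesser type II receptor, with 30% ± 3.49 of the class sum per kilobase in E12KO, 24.7% ± 3.97 in E12wt, 28.2% ± 1.27 in E47KO and 28% ± 2.04 in E47wt. Acvr2a, which activin and BMP ligands both use, made up 65.5% in E12KO, 69.7% in E12wt, 64.2% in E47KO and 66.9% in E47wt.

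Among the Smads that BMP receptors phosphorylate, Smad5 supplied most of the level per kilobase and Smad9 almost none. The Smad5 share lay between 81.4% and 83.3% in E12KO libraries, against 79.9% to 80.4% in E12wt libraries, without overlap. In E47KO it lay between 70.4% and 82.2%, against 80.7% to 81.2% in E47wt, and the lowest value belonged to E47KO replicate 2, which also had the highest Smad1 level. No test was made of these shares, which hold the same reads as the levels tested below. Smad9 averaged between 0.474% and 0.512% of its class over the 4 groups.

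**Figure D2:**
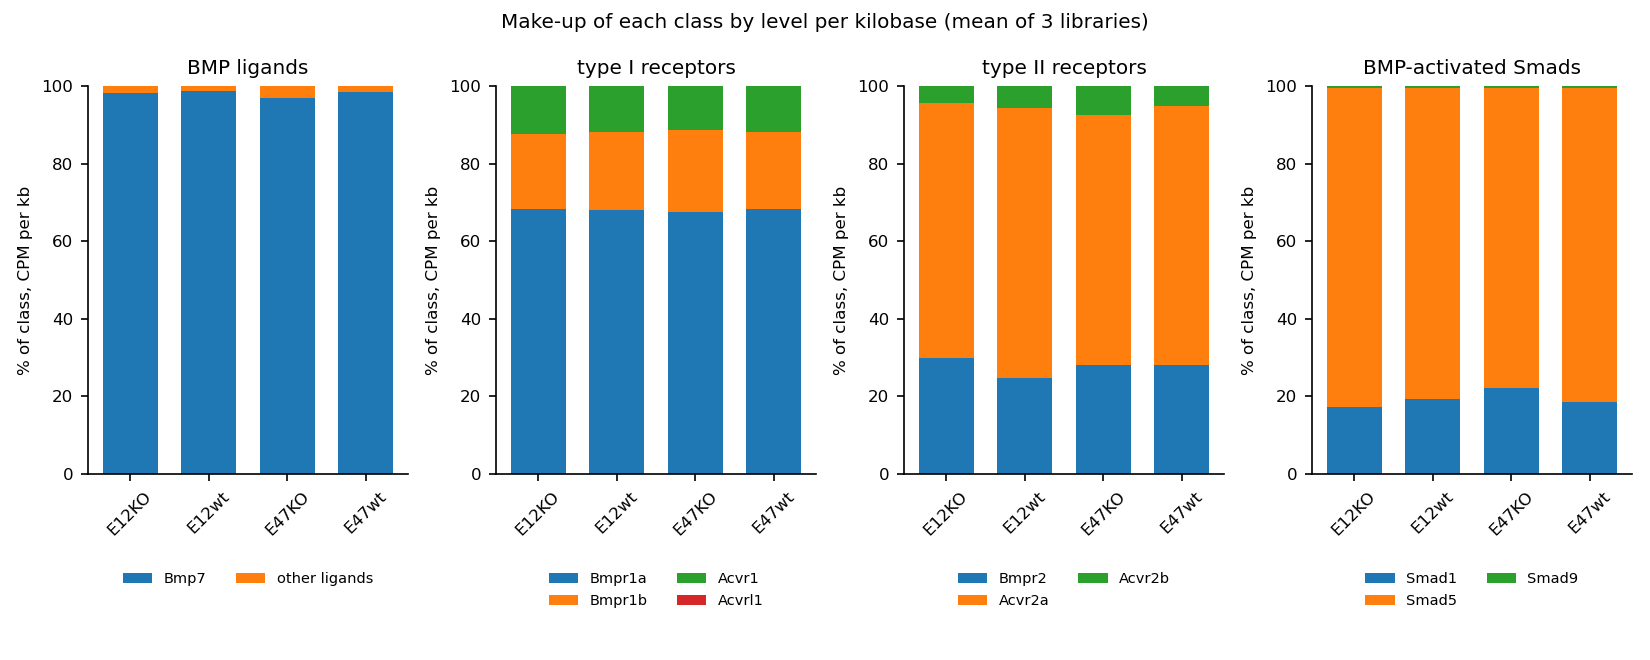
Make-up of 4 classes of the BMP pathway, as percent of the summed CPM per kilobase of the class, mean of 3 libraries in each group. Bmp7 fills 97% or more of the ligand bar in every group, Bmpr1a about the same share of the type I bar (67.5% to 68.4%), and Smad5 between 77.3% and 82.3% of the Smad bar.

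E proteins bind the E-box, a 6-base motif written CANNTG with N for any base. The stretch just before the first transcription start is printed for the genes where it held an E-box. Of these Bmp4 was close to the detection limit, Bmpr1b near the middle of the level range and Smad5 at its top. RefSeq windows of 250 bases before the start (GRCm38.p6) were found for 7 of the 10 genes, namely Bmp4, Bmpr1a, Bmpr1b, Bmpr2, Smad1, Smad5 and Smad6. The first windows of Bmpr1a, Bmpr2, Smad1 and Smad6 held no CANNTG, although 66.2% of all 32851 promoter windows of this length held at least 1. Since CANNTG reads the same way on both strands, 1 search covers both. The window of Bmp4, whose RNA was nearly absent, held 3 E-boxes. That of the first start of Bmpr1b held CAGCTG, a form found in 13% of all windows, and that of the first start of Smad5, the most abundant of the 10, held CAAGTG. E-boxes are in capitals. Starts are numbered by rising genome position, so that the first start of Bmpr1b, on the minus strand, is its most downstream. That of Smad5, on the plus strand, is its most upstream. A match describes the letters in this window and is neither a bound site nor a cause.
Bmp4, chr14:46390670-46390919, minus strand: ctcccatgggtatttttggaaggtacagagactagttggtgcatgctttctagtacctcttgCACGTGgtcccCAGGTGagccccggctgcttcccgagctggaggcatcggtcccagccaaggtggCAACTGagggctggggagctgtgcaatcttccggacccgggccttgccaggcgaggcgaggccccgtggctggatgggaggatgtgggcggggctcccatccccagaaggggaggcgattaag
Bmpr1b, first start, chr3:141931421-141931670, minus strand: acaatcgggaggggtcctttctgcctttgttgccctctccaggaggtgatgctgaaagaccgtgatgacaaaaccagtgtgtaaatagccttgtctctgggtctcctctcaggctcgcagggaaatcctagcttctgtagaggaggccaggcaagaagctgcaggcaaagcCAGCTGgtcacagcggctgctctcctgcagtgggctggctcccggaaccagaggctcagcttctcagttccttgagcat
Smad5, first start, chr13:56702760-56703009, plus strand: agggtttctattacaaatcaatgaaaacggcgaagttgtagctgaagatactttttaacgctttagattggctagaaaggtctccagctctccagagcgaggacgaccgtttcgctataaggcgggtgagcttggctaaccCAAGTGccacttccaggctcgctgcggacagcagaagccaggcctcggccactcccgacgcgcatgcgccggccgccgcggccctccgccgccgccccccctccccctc
The E-boxes of the Bmp4 window begin 188, 177 and 123 bases before the start. The one in the middle, CAGGTG, is a form that 17.2% of all windows held on either strand. The single E-box of the Bmpr1b window begins 79 bases before that start, and that of the Smad5 window 109 bases before. The count changes with the start used: of the 3 starts listed for each of these genes, the second of Bmpr1b and the third of Smad5 had windows with 0 E-boxes, and the third of Bmpr1b had 2.

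The first question was what loss of E12 did to these genes. Of the 10 genes, 8 passed the filter on low counts and were tested, and none was called at an adjusted p under 0.05 by edgeR's quasi-likelihood test with Benjamini-Hochberg (BH) adjustment over all genes. The share called among all 14755 genes tested was 0.0407%, or 6 genes. DESeq2 called none of the 8 either, here or in the other 3 comparisons. At an unadjusted p under 0.05 there was 1 gene of the 8, Bmp7, where 8.96% of all genes tested passed that level. With libraries of the same replicate number as a block 3 of the 8 passed it, where 1349 of all 14755 genes did. These were Bmp7, Smad5 and Bmpr2, with unadjusted p-values of 0.00306, 0.0239 and 0.024 and adjusted ones of 0.443, 0.52 and 0.52 by edgeR. The numbers were not shown to mark pairs. The 3 E12KO libraries did not overlap the 3 E12wt libraries for 2 of the 8, Bmp7 and Smad5, where 13.7% of all genes tested showed no overlap. The median log2 fold change of the 8 was -0.033, with 3 above and 5 below 0, and that of all genes tested was 0.0045, with 51.4% above 0.

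Bmp7, the main BMP ligand of these cells, had 119.7, 94.6 and 102 CPM in the E12KO libraries, against 134, 125 and 139 CPM in the E12wt libraries. All 3 E12KO libraries were thus below all 3 E12wt libraries. The group means were 105.5 ± 12.9 CPM in E12KO and 132.5 ± 6.92 CPM in E12wt (SD, n = 3 each). The fitted log2 fold change was -0.33 ± 0.09 (SE), a ratio of 0.798, with a 95% interval of -0.53 to -0.12 and an edgeR unadjusted p of 0.00567, but the BH-adjusted p was 0.507. Leaving out 1 library at a time gave log2 fold changes between -0.43 and -0.26. In the authors' deposited table the log2 fold change of Bmp7 was -0.33 with a standard error of 0.10 and an adjusted p of 0.128. Of the other-cell markers, the mesenchyme and meninges list differed in its sum, with members going in both directions. The summed level of these 8 was between 9.87 and 11.7 CPM in E12KO libraries, against 12.3 to 17.4 CPM in E12wt libraries, and 3 of the 8 in E12KO and 4 of the 8 in E12wt averaged at least 1 CPM. Among them the collagen gene Col1a2 was at most 0.075 CPM in E12KO and at least 1.62 CPM in E12wt. Foxc1, the most abundant of the 8, went the other way, with 8.06, 8.6 and 8.15 CPM in E12KO, against 7.28, 6.55 and 4.39 CPM in E12wt. The part of such cells in the Bmp7 and Smad5 values was not tested.

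Smad5, which carries the signal from receptor to nucleus, showed the opposite order. It had 391, 424 and 376 CPM in E12KO, against 364, 369 and 314 CPM in E12wt, so that the lowest E12KO library was just above the highest E12wt library. The log2 fold change was 0.19 ± 0.08 (SE), with an unadjusted p of 0.0536 and an adjusted p of 0.557 by edgeR. Its interval, from -0.003641 to 0.38, took in 0. By edgeR the unadjusted p was 0.0479 with both-strand counts, 0.0397 with no filter on low counts and 0.0239 with the replicate block. It was 0.0521 with RLE scaling and 0.214 with all 12 libraries in 1 fit by edgeR, and 0.0515 by DESeq2. In the authors' deposited table it was 0.0415, with an adjusted p of 0.497. The annotation places 3 other genes on the same strand within the Smad5 gene body, where reads may not be assigned to a single gene. Smad1, its close relative, was at 69.5, 69.8 and 70.6 CPM in E12KO and at 74.7, 74.2 and 64.6 CPM in E12wt. The E12KO values lay inside the E12wt range, and the log2 fold change was -0.02 with an interval of -0.19 to 0.14.

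The receptors overlapped between the groups. Bmpr1a, a type I receptor widely used in the brain, had 225, 258 and 235 CPM in E12KO, against 251, 252 and 238 CPM in E12wt. The log2 fold change was -0.04 ± 0.07 (SE), and the interval from -0.20 to 0.12 bounds a difference in either direction. Bmpr1b, the second type I receptor, had 58.3, 72.1 and 58.2 CPM in E12KO, against 69.7, 78.9 and 57.4 CPM in E12wt, with a log2 fold change of -0.12 ± 0.13 (SE). The type II receptor Bmpr2 had 65.1, 92.4 and 83.8 CPM in E12KO, against 59.7, 83.6 and 58.7 CPM in E12wt. Although its mean was 80.4 CPM in E12KO and 67.4 CPM in E12wt, the groups overlapped, and the log2 fold change of 0.26 ± 0.16 (SE) had an interval of -0.11 to 0.63.

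The inhibitors were measured on fewer reads. Bambi had 318, 337 and 458 reads in E12KO libraries and 350, 373 and 286 reads in E12wt libraries. This gave 7.89, 8.43 and 10.9 CPM in E12KO, against 7.59, 9.11 and 6.61 CPM in E12wt, which overlapped, and a log2 fold change of 0.22 ± 0.17 (SE). Smad7 had 3.5, 3.08 and 2.95 CPM in E12KO, against 4.14, 4.13 and 2.2 CPM in E12wt, with a log2 fold change of -0.14 and an interval of -0.70 to 0.43. The adjusted p-values of Smad1, the 3 receptors, Bambi and Smad7 were between 0.624 and 0.929 by edgeR. Bambi has a pseudogene, Bambi-ps1, with 579 reads over all libraries, and none of the 50-base stretches of the annotated Bambi transcripts occurs in a transcript of another gene.

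Bmp4 and Smad6 could not be compared. Bmp4, a ligand often used to turn neural stem cells into astrocytes, had 1, 1 and 2 reads in E12KO, 5, 1 and 0 in E12wt, 2, 1 and 1 in E47KO, and 2, 5 and 0 in E47wt, or 21 reads in all. Smad6 had 1, 0 and 3 reads in E12KO, 0, 1 and 0 in E12wt, 0, 9 and 1 in E47KO, and 1, 2 and 1 in E47wt. Of these 19 reads of Smad6, 9 came from E47KO replicate 2. The highest level of any library was 0.108 CPM for Bmp4 and 0.2495 CPM for Smad6, and neither passed the filter on low counts in any comparison.

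Loss of E47 gave no called BMP gene either. Of the 8 tested none was called, where the share among all 14965 genes tested was 0.0134%, or 2 genes, by edgeR's quasi-likelihood test. None of the 8 passed an unadjusted p of 0.05 by edgeR without the replicate block, where 2.19% of all genes did, and none was without overlap between the groups, where 7.81% of all genes were. Their median log2 fold change was -0.116, with 2 above and 6 below 0, against a median over all genes tested of -0.00503.

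Bmp7 had 104, 41.6 and 138 CPM in E47KO, against 137, 114 and 162 CPM in E47wt. The knockout libraries spread widely, with replicate 2 far below the other 2 and replicate 3 inside the wild-type range. Means were 94.5 ± 48.8 CPM in E47KO and 137.5 ± 23.7 CPM in E47wt (SD, n = 3 each), and the log2 fold change was -0.56 ± 0.39 (SE) with an adjusted p of 0.971 by edgeR. Without E47KO replicate 2 it was -0.20 ± 0.17 (SE). Its interval in all 6 libraries, -1.46 to 0.35, takes in both 0 and the size seen in the E12 line. At each of the 3 replicate numbers Bmp7 was lower in E47KO than in E47wt, but the numbers were not shown to mark pairs. With these numbers as a block the log2 fold change of Bmp7 was -0.70 ± 0.25 (SE). Its unadjusted p was 0.0323 and its adjusted p 0.866 by edgeR, so it was not called. With this block 493 of all 14965 genes tested had an unadjusted p under 0.05 by edgeR. With sex, read from Xist, as a covariate the log2 fold change of Bmp7 was -0.29 ± 0.56 (SE). All 3 E47KO libraries and 1 of 3 E47wt libraries were low in Xist.

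The other members of the pathway in the E47 line were not called, and their groups overlapped. Bmpr1a had 211, 219 and 259.6 CPM in E47KO, against 232, 251 and 252 CPM in E47wt, with a log2 fold change of -0.11 ± 0.11 (SE). Bmpr1b had 61.1, 79.2 and 60.7 CPM in E47KO, against 64.6, 71.5 and 64.3 CPM in E47wt, with a log2 fold change of -0.01 and an interval of -0.34 to 0.32. Bmpr2 had 61.4, 68.8 and 75.2 CPM in E47KO, against 65.6, 83.6 and 72.3 CPM in E47wt, with a log2 fold change of -0.13 ± 0.13 (SE), and of -0.31 ± 0.19 with sex as a covariate. For all 3 receptors the E47KO and E47wt values overlapped. Without E47KO replicate 2 the log2 fold changes were -0.07 for Bmpr1a, -0.15 for Bmpr1b and -0.13 for Bmpr2.

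For the Smads and inhibitors, E47KO replicate 2 was the highest or lowest of the group in each case but did not make a called difference. Smad5 had 349, 254 and 351 CPM in E47KO, against 401, 367 and 306 CPM in E47wt, with a log2 fold change of -0.19 ± 0.16 (SE), and of -0.05 without that library. Smad1 had 74.8, 88.7 and 62.1 CPM in E47KO, against 76.6, 72.8 and 58.4 CPM in E47wt, with a log2 fold change of 0.10 ± 0.17 (SE), and of -0.03 without it. Smad7 had 2.8, 4.6 and 2.7 CPM in E47KO, against 3.32, 3.62 and 2.49 CPM in E47wt. Its log2 fold change was 0.08 ± 0.29 (SE) and turned to -0.21 without that library. Bambi had 8.91, 6.49 and 6.7 CPM in E47KO, against 8.76, 9.25 and 7.12 CPM in E47wt, with a log2 fold change of -0.20 ± 0.20 (SE), and of -0.12 without it. The adjusted p-values of these 4 genes were between 0.971 and 0.982 by edgeR.

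**Figure D3:**
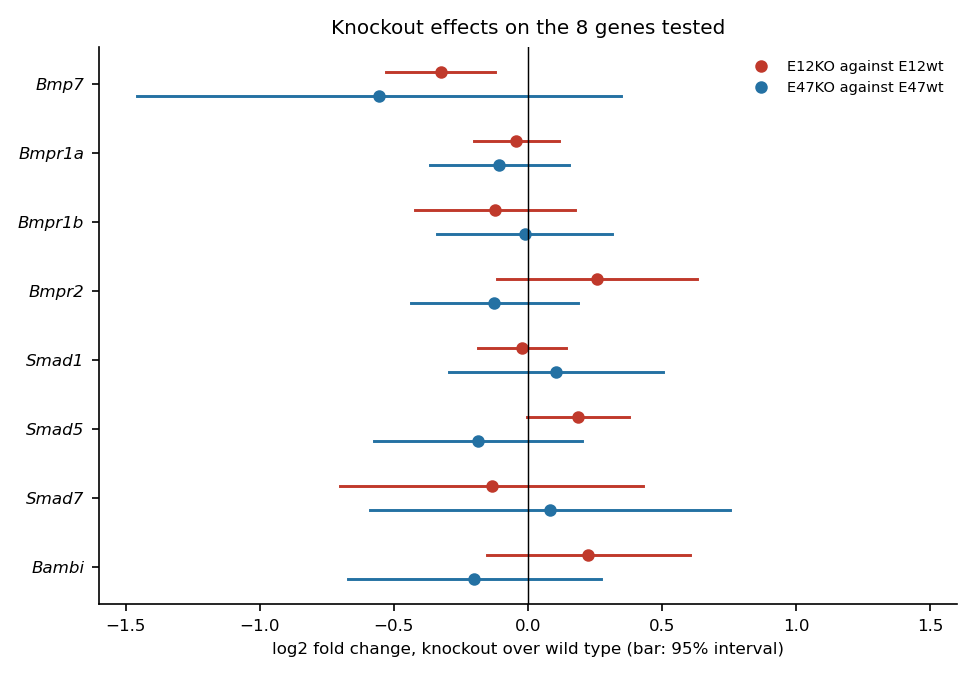
Log2 fold change of knockout over wild type for the 8 genes tested, with its 95% interval, for the E12 line (red) and the E47 line (blue). The E12 interval of Bmp7, -0.53 to -0.12, is the only 1 of the 16 that leaves out 0, and the E47 intervals are wider for all 8 except Bmpr2.

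E47KO replicate 2 held the highest or the lowest level of the 12 libraries for 6 of the 8 genes, where it did so for 59.3% of all 15277 genes tested over the 12 libraries. It was the highest for Bmpr1b, Smad1 and Smad7 and the lowest for Bmp7, Smad5 and Bambi. The ratio of the highest to the lowest library was 3.88 for Bmp7, 2.09 for Smad7, 1.68 for Bambi and 1.67 for Smad5. It was 1.57 for Bmpr2, 1.52 for Smad1, 1.38 for Bmpr1b and 1.23 for Bmpr1a, which was the steadiest of the 8. In this library astrocyte and progenitor markers also differed. Aqp4, a water channel of astrocytes, was at 24 CPM, and between 1.66 and 4.84 CPM in the other 11. Hes5, a Notch target of neural stem cells, was at 966 CPM, and between 291 and 498 CPM in the other 11. The summed level of the 5 astrocyte markers was 166 to 294 CPM in E47KO, against 81.9 to 182 CPM in E47wt, and 4 of the 5 averaged at least 1 CPM. This sum was carried mainly by Aldh1l1, a folate enzyme used as an astrocyte marker, with 149, 205 and 108 CPM in E47KO, against 110, 28.6 and 69.5 CPM in E47wt. Slc1a2, a glutamate transporter, had 44.6, 55.4 and 53 CPM in E47KO, against 62.6, 45.2 and 55.4 CPM in E47wt. Aqp4 and S100b were above the E47wt range in E47KO replicate 2 alone. Gfap, the remaining astrocyte marker and a listed BMP target, was under 1 CPM in every library. It had 0.719, 0.887 and 0.955 CPM in E47KO, against 0.272, 0.578 and 0.661 CPM in E47wt, without overlap. Its log2 fold change was 0.73 with an adjusted p of 0.971 by edgeR, and 0.70 without replicate 2. The part of the astrocyte and progenitor markers in the BMP gene values was not tested.

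The difference between the E47 knockout effect and the E12 knockout effect was tested itself, as an interaction over all 12 libraries. None of the 8 genes was called and none passed an unadjusted p of 0.05, where 3.03% of all 15277 genes passed that level and 0% were called by edgeR. With the replicate block Bmpr2 passed that level, with an unadjusted p of 0.0373 and an adjusted p of 0.841 by edgeR, where 566 of all 15277 genes passed it. In the fit without block or covariate Smad5 came nearest, with a difference of -0.37 ± 0.19 (SE) on the log2 scale. Its unadjusted p was 0.0839 and its adjusted p 0.932 by edgeR. Bambi gave -0.42 ± 0.27 and Bmpr2 gave -0.38 ± 0.23, each with an adjusted p of 0.932. For Bmp7, which was lower in the mean of both knockouts, the difference was -0.22 ± 0.44, with an interval of -1.18 to 0.73, and 0.14 ± 0.20 without E47KO replicate 2. With sex, read from Xist, as a covariate, Bmpr2 gave -0.56 ± 0.28 with an unadjusted p of 0.0691 by edgeR. Smad5 then gave -0.41 ± 0.25 with an unadjusted p of 0.13. Bmpr2 was at an unadjusted p of 0.0216 without E12wt replicate 2 and of 0.0456 without E12KO replicate 1, but was called in no setting. The opposite signs of Smad5, Bmpr2 and Bambi between the lines were therefore not shown to differ.

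E47wt was compared with E12wt to see how far cultures of different litters differ without a knockout, although line and litter cannot be told apart. The groups also differed in sex as read from Xist, since E47wt replicate 2 alone of these libraries was low, at 0.835 CPM. No BMP gene was called, where 0% of all 14892 genes were, none of the 8 passed an unadjusted p of 0.05, where 3.81% of all genes did, and none was without overlap, where 9.43% were. The log2 fold changes of E47wt over E12wt ran from -0.15 for Smad7 to 0.13 for Bmpr2, with an adjusted p of 1 for all 8 by edgeR. Bmp7 averaged 137.5 CPM in E47wt and 132.5 CPM in E12wt. By group means the order of Bmp7 was E47wt, E12wt, E12KO and E47KO, from high to low, and of its neighbours in that order only E12wt and E12KO were without overlap. For each of the other 7 genes tested, all neighbouring groups overlapped. The ratio of the highest to the lowest group mean was 1.45 for Bmp7, 1.25 for Smad5, 1.23 for Bambi and 1.19 for Bmpr2, and at most 1.11 for Smad7, Smad1, Bmpr1b and Bmpr1a.

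Bmp7 was also the tested BMP gene with the largest spread over libraries, with an SD of 0.50 in log2 CPM. The 3 genes whose profile over the 12 libraries was closest to it were Cxadr, a virus receptor of cell junctions, Slc6a17, a neurotransmitter transporter of synaptic vesicles, and Fam84a. Their root mean square difference from Bmp7 in centred log2 CPM was 0.104, 0.117 and 0.142, where the median over 12587 genes was 0.502. All 4 had their lowest value in E47KO replicate 2. For Smad6 the closest genes were Ccdc13, Lingo1 and Nkd1 (0.315, 0.384 and 0.391) and for Bmp4 Crnde, Acss2 and Notch4 (0.363, 0.381 and 0.39), but these profiles rest on 0 to 9 reads per library.

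**Figure D4:**
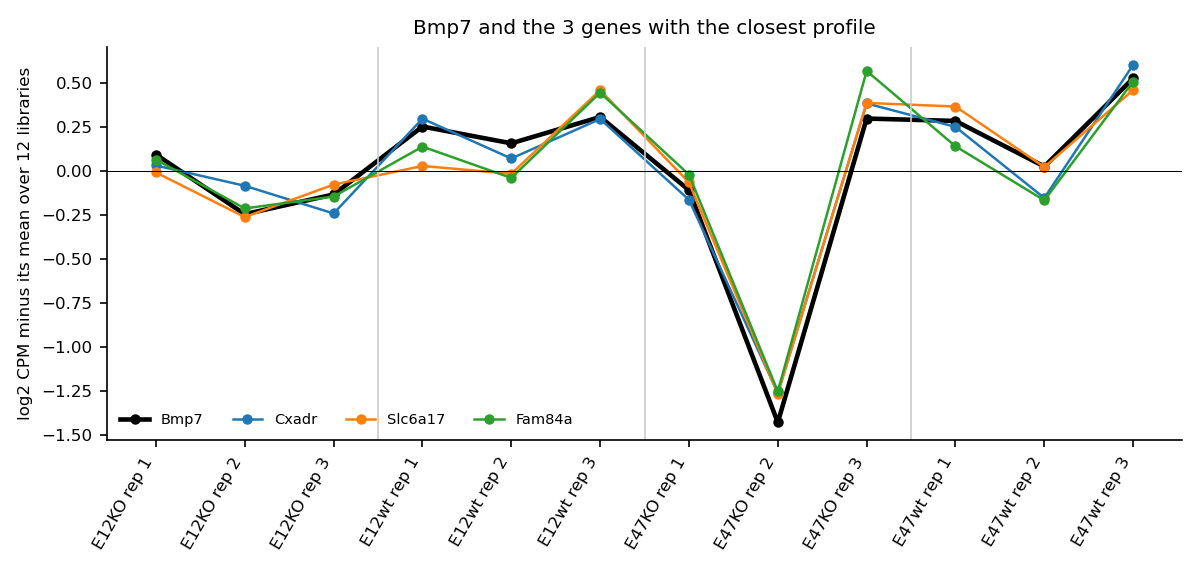
Centred log2 CPM of Bmp7 (black) and of the 3 genes nearest to it over the 12 libraries, by group and replicate. All 4 dip in E47KO replicate 2, where Bmp7 is at -1.43, and the E12KO points of Bmp7 lie below its E12wt points.

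The wider pathway was read through 79 other listed BMP genes, of which 57 were tested in each line and none was called. In the E12 line 30 were above and 27 below 0, with a median log2 fold change of 0.0111. There 8 passed an unadjusted p of 0.05, where 8.96% of all genes tested did, and 8 were without overlap, where 13.7% were. In the E47 line 31 were above and 26 below 0, with a median of 0.0742. There 1 passed an unadjusted p of 0.05, where 2.19% of all genes tested did, and 5 were without overlap, where 7.81% were. E47KO replicate 2 was the highest of the 12 libraries for 25 of the 57, and without it 27 were above and 30 below 0, with a median of -0.0127. The interaction tested 58 of them, with 35 above and 23 below 0 and 2 at an unadjusted p under 0.05, where 3.03% of all genes tested were. E47wt over E12wt tested 57, with 31 above and 26 below 0 and 2 at that level, where 3.81% of all genes tested were. Among the other ligands, 4 of 15 were tested. Bmp1, a protease that processes collagen and frees BMPs from Chordin, averaged 117 ± 6.45 CPM in E12KO and 115 ± 4.7 CPM in E12wt, and 137.5 ± 32.8 CPM in E47KO and 118 ± 8.13 CPM in E47wt (SD, n = 3 each). The E47KO mean of Bmp1 rests on 175.1 CPM in replicate 2, without which its log2 fold change was -0.0083. Gdf11, a ligand of the activin branch, had log2 fold changes of -0.06 in the E12 line and -0.14 in the E47 line.

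Of 13 other receptors and co-receptors 10 were tested, 4 above and 6 below 0 in each line. Tgfbr1, the type I receptor for TGF-beta, averaged 132 CPM in E12KO and 134 CPM in E12wt, and 119 CPM in E47KO and 132 CPM in E47wt. Rgma, a BMP co-receptor, had 122, 334.4 and 53.5 CPM in E47KO, against 102, 110.4 and 50.8 CPM in E47wt, with an adjusted p of 0.971 by edgeR. The high value was that of replicate 2, and without it the log2 fold change was -0.02 ± 0.41 (SE). Of 21 secreted antagonists and modulators 15 were tested, with 9 above and 6 below 0 in each line. Twsg1, which binds BMPs and Chordin, averaged 71.7 CPM in E12KO and 70.3 CPM in E12wt, and 81.9 CPM in E47KO and 75.1 CPM in E47wt. Bmper, a BMP-binding secreted protein, had log2 fold changes of 0.07 in the E12 line and 0.14 in the E47 line. E47KO replicate 2 was the highest library for both genes. Without it the log2 fold changes in the E47 line were -0.05 for Twsg1 and -0.01 for Bmper.

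Of 17 other Smads and intracellular regulators 16 were tested, 9 above and 7 below 0 in the E12 line and 6 above and 10 below 0 in the E47 line. Smad4, the partner of Smad1 and Smad5, averaged 121 ± 3.8 CPM in E12KO and 128 ± 3.22 CPM in E12wt, and 129 ± 5.63 CPM in E47KO and 123 ± 2.04 CPM in E47wt (SD, n = 3 each). Map3k7, a kinase of the Smad-independent branch, averaged 201 CPM in E12KO and 200.3 CPM in E12wt, and 180.3 CPM in E47KO and 202 CPM in E47wt. Neither was called. None of the target genes was called. Of 14 listed 13 were tested, 7 above and 6 below 0 in the E12 line, and 10 above and 3 below 0 in the E47 line. The median log2 fold change of the targets in the E47 line was 0.295, against -0.00503 over all genes tested, of which 49% were above 0. E47KO replicate 2 was the highest of the 12 libraries for 8 of the 13, among them Id1, Id2, Id3, Id4 and Hey1. Without it 7 were above and 6 below 0, with a median of 0.0336. Hey1, a bHLH repressor, averaged 194 CPM in E12KO and 172 CPM in E12wt, and 203 CPM in E47KO and 168 CPM in E47wt. Id3 averaged 148 ± 23 CPM in E12KO and 125 ± 54.3 CPM in E12wt, and 182 ± 103 CPM in E47KO and 138 ± 47.2 CPM in E47wt (SD, n = 3 each). Without E47KO replicate 2 the log2 fold changes in the E47 line were 0.03 ± 0.38 for Hey1 and -0.06 ± 0.43 for Id3 (SE).

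Id2, a BMP target whose protein binds E proteins, was singled out after its values were seen. It averaged 43.9 ± 3.41 CPM in E12KO and 60.2 ± 2.57 CPM in E12wt (SD, n = 3 each), without overlap. The log2 fold change was -0.45 ± 0.08 (SE) with an adjusted p of 0.223 by edgeR, and in the authors' deposited table the adjusted p was 0.000376. In the E47 line Id2 averaged 47.9 ± 26.3 CPM in E47KO and 55.2 ± 14.3 CPM in E47wt, and the groups overlapped. The log2 fold change there was -0.22 ± 0.42 (SE) with an adjusted p of 0.971 by edgeR. It was -0.69 ± 0.35 (SE) without E47KO replicate 2.

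**Figure D5:**
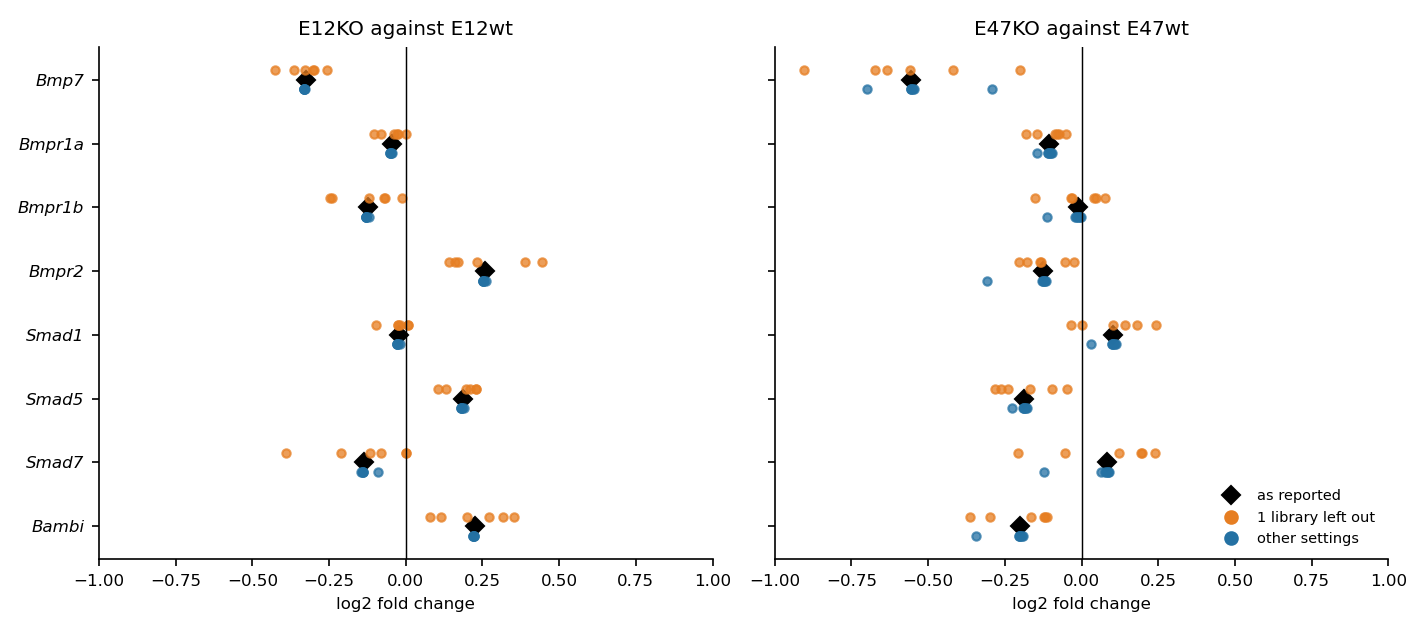
Log2 fold change, knockout over wild type, of the 8 tested BMP genes in the E12 line (left) and the E47 line (right), as reported (black), with 1 library left out (orange) and under the other settings tried (blue). In the E12 line Bmp7 stays between -0.43 and -0.26; in the E47 line it runs from -0.91 to -0.20.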

How the data were processed

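RNA of 12 cultures was sequenced after a stranded library kit, per the labels' protocols. The submitters' processing notes name STAR 2.5, mm9, DESeq2 and DESeq, without their roles, and no annotation release. The authors deposited read counts per gene for both strands and for each strand, and for each line a table with normalized signal per library, log2 fold changes, a score and p-values. Opposite-strand counts (97.13 to 97.24% of strand-assigned gene reads) were used. IDs were named by a GRCm38 annotation (32897 of 37620, 10 more by the deposited tables), which also gave exon lengths; promoter windows are RefSeq's, GRCm38.p6.

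Each line was tested in its own 6 libraries with edgeR 4.0.16 (R 4.3.3): its filter on low counts by group, TMM scaling, quasi-likelihood F test, two-sided p-values BH-adjusted over all genes tested, called under 0.05. The interaction used 12 libraries and the wild types 6. SE is the log2 fold change over the root of F; intervals use the test's degrees of freedom. CPM are TMM-scaled over 12 libraries, with SD over 3. The 3-read floor covers counting error only. The scripts were tested on simulated data. Depth was 34515297 to 56835783 gene reads, and no pair of libraries of a group agreed within sampling noise (chi-square per degree of freedom of 12.9 or more).

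The 10 genes, the 79 others and the markers were chosen with earlier results of these data known. Named are all 10, from each list of others called genes or else the 2 highest in mean CPM, and the 3 nearest profiles of the 3 most variable of the 10. Same-numbered E47KO and E47wt libraries deviated together (correlations across genes of 0.119, 0.23 and 0.467). Those of E12 (0.103, 0.0673 and -0.0161) did not all meet the minimum of 0.1. However, E47KO replicate 2 with E47wt replicate 1 gave 0.151. Same-numbered libraries of E47wt and E12wt, from different lines, gave 0.0671, 0.277 and 0.302. The numbers were therefore not shown to mark pairs within a line. Alternatives were DESeq2 1.42.0, RLE scaling, no filter on low counts, both-strand counts, a replicate block, all 12 libraries in 1 fit, a sex covariate (Xist above 10 CPM) and leaving out each library.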

Additional observations from a re-analysis of the deposited data

How the results depend on the processing

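None of the 8 tested BMP genes was called under any alternative, nor were Bmp4 and Smad6 where a setting let them in. The number of genes called in the E12 line was 6, and 95 with DESeq2, 20 with no filter on low counts, 2 with all 12 libraries in 1 fit and 2 to 10 with 1 library left out. In the E47 line it was 2, and 5 with DESeq2, 1 with the sex covariate and 0 to 7 with 1 library left out. For the interaction it was 0, and 1 with DESeq2 and 0 to 1 with 1 library left out; between the wild types it was 0, and 6 with DESeq2, 1 with all 12 libraries in 1 fit and 0 with any 1 library left out. With the replicate block, 4 genes were called in the E12 line and 2 in the E47 line, and no BMP gene; Bmp7 in the E47 line was then -0.70 ± 0.25 (SE) with an unadjusted p of 0.0323 and an adjusted p of 0.866 by edgeR, and its adjusted p over all alternatives was 0.505 to 1. For Bmp7 in the E12 line that range was 0.142 to 1. The block changed no call of these genes, and the replicate numbers were not shown to mark pairs. In the E47 line 493 of all 14965 genes tested had an unadjusted p under 0.05 with the block by edgeR. The cause of the differences between settings was not tested.

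With the sex covariate, where all 3 E47KO libraries and 1 of 3 E47wt libraries were low in Xist, Bmp7 in the E47 line was -0.29 in place of -0.56 and Bmpr2 -0.31 in place of -0.13, Smad7 in the E47 line turned to -0.12 and the Bmp7 interaction to 0.0407. Leaving out 1 library turned the sign of results near 0. In the E12 line Smad1 ran from -0.097 to 0.0089 and Smad7 from -0.39 to 0.0024. In the E47 line Bmpr1b ran from -0.15 to 0.076, Smad1 from -0.034 to 0.24 and Smad7 from -0.21 to 0.24. In the interaction Bmp7 ran from -0.58 to 0.14, Bmpr1a from -0.14 to 0.0048, Bmpr1b from -0.016 to 0.24 and Smad7 from -0.063 to 0.47. Between the wild types Bmp7 ran from -0.076 to 0.16, Bmpr1a from -0.046 to 0.026, Bmpr1b from -0.16 to 0.0699, Smad1 from -0.12 to 0.072, Smad5 from -0.052 to 0.14 and Bambi from -0.0011 to 0.24. All other results of the 8 genes kept their direction under the alternatives run. Depth limits Bmp4 and Smad6, with 21 and 19 reads in all.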

Other observations

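The other BMP genes that passed an unadjusted p of 0.05 in either line are named here after their values were seen, beside Id2 above; none was called by edgeR. In the E12 line Tgfbr2, the type II receptor for TGF-beta, averaged 19.8 ± 5.99 CPM in E12KO and 11.6 ± 2.46 CPM in E12wt (SD, n = 3 each), a log2 fold change of 0.78 with an edgeR adjusted p of 0.515. Crim1, a membrane protein that binds BMPs, averaged 37.7 ± 7.85 CPM in E12KO and 25.2 ± 5.24 CPM in E12wt, with an edgeR adjusted p of 0.515. The libraries of both groups overlapped for Tgfbr2 and Crim1, and also for Tob1, a regulator that binds Smads, with a log2 fold change of 0.29. There was no overlap for the other 4. Tob2, a relative of Tob1, was higher in E12KO by 0.28 on the log2 scale, with an unadjusted p of 0.00439 and an adjusted p of 0.507 by edgeR. Nbl1, a secreted BMP antagonist, was higher by 0.35, with an edgeR adjusted p of 0.523. Vwc2, a secreted protein that binds BMPs, was lower in E12KO, with a log2 fold change of -0.46, an unadjusted p of 0.00542 and an adjusted p of 0.507 by edgeR. Msx1, a homeobox BMP target, was higher in E12KO, but at no more than 1.09 CPM in any E12KO library and 0.52 CPM in any E12wt library. In the E47 line the 1 gene at that level was Chrd, the secreted BMP antagonist Chordin. It averaged 4.42 ± 1.86 CPM in E47KO and 2.53 ± 0.304 CPM in E47wt, without overlap, and 2.39 ± 0.54 CPM in E12KO and 3.28 ± 0.96 CPM in E12wt. The highest E47KO value, 6.57 CPM, was that of replicate 2. Without that library Chrd had a log2 fold change of 0.39 ± 0.20 (SE) in the E47 line, in place of 0.79. The unadjusted p of Chrd was then 0.092 by edgeR. The difference between its knockout effects was 1.24 on the log2 scale, with an unadjusted p of 0.0135 and an adjusted p of 0.932 by edgeR.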
